A study of Mus musculus with 6 samples.

Results

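The genes described are 9 factors of the primitive streak and of the mesendoderm that arises from it: the transcription factor genes Sp5, Mixl1, Evx1, Cdx1, Gsc, Lhx1, Mesp1 and Tbx6, and Cer1, which encodes a secreted inhibitor. They were chosen by name. Their values come from the 11 probe sets (groups of oligonucleotides that report 1 transcript) whose platform annotation names exactly 1 gene and that gene is one of them, out of 34945 such probe sets for 18193 genes. Lhx1 and Cer1 have 2 probe sets each and the other genes 1.

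Expression was measured on 6 arrays of R1 mouse embryonic stem cells, a line grown undifferentiated in serum medium with leukaemia inhibitory factor. There were 2 groups of 3 biological replicates: cells stably transfected with a short hairpin RNA (shRNA) directed at Pcl2, and control cells stably transfected with a mismatch version of the hairpin sequence. Pcl2, whose gene symbol is Mtf2, is an accessory protein of Polycomb repressive complex 2, which methylates lysine 27 of histone H3. All samples with the Pcl2 hairpin derive from 1 clone. The effect of the shRNA and that of the clone therefore cannot be told apart, and the labels do not say how many clones the control holds.

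The primitive streak is the site in the gastrulating embryo where epiblast cells leave the epithelium and become mesoderm and endoderm. Wnt, Nodal and Bmp signals induce it, Wnt acting through beta-catenin and Tcf/Lef factors and Nodal through Smad proteins and Foxh1. In embryonic stem cells most streak genes are silent or low, are bound by Polycomb complexes in many cases, and come on in cells that leave pluripotency towards mesendoderm.

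The values are the authors' MAS5 signals, a linear intensity per probe set. Background was taken as a signal of 20.3, the highest value of 27 probe sets for bacterial RNAs that the hybridisation kit does not hold. Fold changes are log2 differences of signal + 7, Pcl2 shRNA minus control, with a standard error (SE), and understate the change of dim genes. Means are given ± SD with n = 3 arrays per group, adjusted p-values are those of limma after Benjamini-Hochberg adjustment over all genes tested, and a gene was called at an adjusted p below 0.05. The number of arrays limits the precision. A probe set was tested if its mean reached a signal of about 20.2, the 40th percentile of all probe sets. Of the 9 genes, Sp5, Mixl1, Mesp1 and Tbx6 passed this filter, and Evx1, Cdx1, Gsc, Lhx1 and Cer1 did not. Levels of different probe sets are not compared, since each has its own response.

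Across the series, 1652 of 13095 genes were called (12.6%), 584 higher in the Pcl2 shRNA cells and 1068 lower (8.16%). With the replicate number as a block the count was 3113 (23.8%), and without Pcl2 shRNA replicate 2 it was 979. For Mtf2 itself the log2 change was -0.74 (SE 0.17; adjusted p = 0.0157). This call was lost without mismatch control replicate 1, without Pcl2 shRNA replicate 3 and without both samples numbered 1, with values between -0.84 and -0.53 over all alternatives. The embryonic stem cell markers were present on every array: all 8 listed passed the filter, and Dppa5a, the brightest, gave 7601 ± 1621 and 10292 ± 2352 (adjusted p = 0.219). Of the 8, 4 rose in the shRNA cells, among them Esrrb by log2 1.47, Zfp42 by 1.32 and Sox2 by 0.76 (adjusted p = 0.000420, 0.00269 and 0.0186), the Sox2 call being lost in 5 of 21 alternatives. Their summed signal was 20798 to 26733 in the control and 33269 to 44335 in the shRNA cells, without overlap, and its part in the members' values was not tested.

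Sp5 and Mixl1 fell in the Pcl2 shRNA cells, Mesp1 and Tbx6 were measured above background on all but 1 array and did not pass the test, and the other 5 genes gave signals mostly at or below background in both groups. Of the 4 genes tested, 2 were called lower, against 8.16% of all genes, and 0 higher, against 4.46%, the limma changes of all 4 being below 0. The same genes were called with the replicate block, against 13.8% of all genes lower and 9.97% higher. Since the filter uses the mean of all 6 arrays, a gene at background in the shRNA cells could pass only through its control arrays. This was the case for Mixl1, and the Sp5 shRNA mean of 19.6 also lay under the filter signal of about 20.2. The count is therefore a description. In the fit over every probe set without a filter, the same 2 of the 11 probe sets were called lower, against 3.79% of all 34945, and 0 higher, against 1.79%.

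Sp5 encodes a zinc finger factor of the Sp family, a direct target of Wnt and beta-catenin that acts in the streak and later in the tailbud. Its signal was 501, 237 and 410 in control replicates 1, 2 and 3 and 28.5, 22.6 and 7.79 in Pcl2 shRNA replicates 1, 2 and 3. The lowest control array lay far above the highest shRNA array, and shRNA replicates 1 and 2 were just above background while replicate 3 was below it. The mean went from 383 ± 134 to 19.6 ± 10.7, which is 5.13% of the control. On the log2 scale this was a change of -3.90 (SE 0.36) and the adjusted p was 0.000151. The 95% interval ran from -4.70 to -3.10. The exact two-sided permutation p was 0.1, the smallest that 3 against 3 arrays allow. With all signals floored at the background level the change was -3.61 (adjusted p = 3.65e-05). In these bulk samples, fewer cells that express a gene and less RNA per expressing cell cannot be told apart.

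The 250 bases upstream of the Sp5 start site are shown because they hold several copies of the core bound by Tcf/Lef, the DNA-binding partners of beta-catenin, and those of Mesp1 because they hold copies of the same core in a tested gene that was not called. Both were read from RefSeq's promoter table on GRCm38.p6, Sp5 on the plus strand at chr2:70474673-70474922 and Mesp1 on the minus strand at chr7:79793591-79793840. Capitals mark CTTTGA or CTTTGT, or the reverse complement of either. Both windows end at the base before the annotated start.
Sp5: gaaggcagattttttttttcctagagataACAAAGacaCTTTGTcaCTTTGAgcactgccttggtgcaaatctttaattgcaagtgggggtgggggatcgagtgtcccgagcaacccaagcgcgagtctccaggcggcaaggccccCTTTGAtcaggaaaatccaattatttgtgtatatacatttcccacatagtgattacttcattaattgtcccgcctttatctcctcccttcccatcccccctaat
Mesp1: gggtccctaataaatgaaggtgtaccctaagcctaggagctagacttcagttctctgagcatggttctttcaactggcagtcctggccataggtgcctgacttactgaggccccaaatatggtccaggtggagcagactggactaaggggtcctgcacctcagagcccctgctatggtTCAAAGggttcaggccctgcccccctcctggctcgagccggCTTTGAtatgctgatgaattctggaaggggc

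The Sp5 window held 4 matches, 3 of them on the forward strand and 1 on the reverse, with no overlap between them. Their first bases lie at -221, -212, -204 and -104 from the start site, so 3 of the 4 are within a short stretch at the distal end. Of all 32851 promoter windows of this length in the table, 0.0944% held 4 or more matches and 27.6% held at least 1. The Mesp1 window held 2 matches, at -72 and -31, and 5.15% of all windows held 2 or more. Windows were read for 7 of the 9 genes, and those of Evx1, Gsc, Lhx1, Tbx6 and Cer1 held 0. A window of Cdx1 was available but was dropped by hand without a recorded reason, and none was used for Mixl1. How Sp5 compares with Cdx1 or Mixl1 in matches or CpGs is therefore not shown. A match is a sequence description and was not set against binding data.

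The same windows differed in CpG dinucleotides, the sequence feature that marks many promoters bound by Polycomb complexes. Lhx1 held 26 and Gsc 22 CpGs, more than 90.4% and 85.2% of all windows have. Evx1 held 10, Sp5 and Tbx6 held 6 each, Cer1 held 5 and Mesp1 held 2, around a median over all windows of 6. Lhx1 and Gsc had the most CpG-rich of the windows read, and the Sp5 window had the median number. A relation of CpG number to signal was not tested.

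Mixl1 encodes a paired-type homeodomain factor of the streak that patterns mesoderm and endoderm. Its signal was 153, 54.1 and 48.7 in control replicates 1 to 3 and 18.5, 8.14 and 6.82 in shRNA replicates 1 to 3. Every control array lay above background and every shRNA array below it, so the shRNA level is only a bound. The geometric mean of the control signals was 3.64 times the background level, so Mixl1 was at least 3.64-fold lower in the shRNA cells. The fitted log2 change was -2.22 (SE 0.41, adjusted p = 0.00622) between means of 85.2 ± 58.6 and 11.1 ± 6.38, with an exact two-sided permutation p of 0.1. Control replicate 1 was the highest by far: without it Mixl1 was at least 2.53-fold lower and the fitted change was -1.74 (adjusted p = 0.0122).

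**Figure D1:**
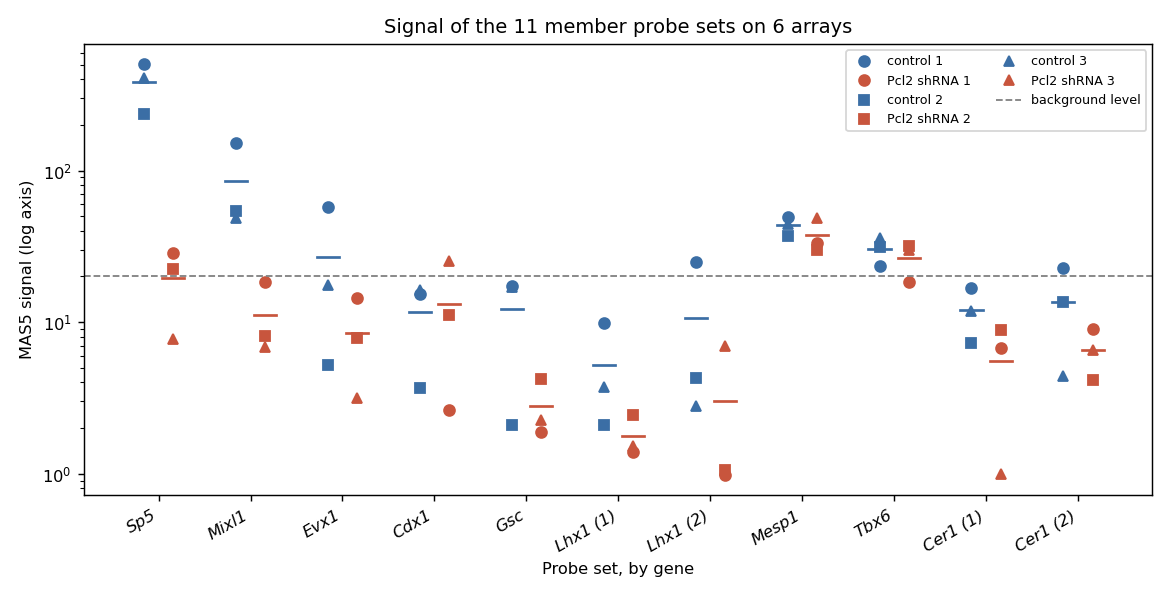
MAS5 signal on a log axis for the 11 probe sets of the 9 genes, with 3 control arrays (blue) and 3 Pcl2 shRNA arrays (red); symbols mark the replicate number, short lines the group means and the dashed line the background level of 20.3. The groups are apart for Sp5 and Mixl1, and overlap for the other 9 probe sets, most of which lie at or below the dashed line.

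Mesp1 and Tbx6 encode factors of mesoderm that has left the streak. Mesp1, a basic helix-loop-helix factor of cardiac progenitors, gave 49.6, 37.2 and 44.3 in the control and 33.4, 29.8 and 48.7 in the shRNA cells. All 6 arrays were above background and the groups overlapped. The log2 fold change was -0.21 (SE 0.25, 95% interval -0.76 to 0.34, adjusted p = 0.655). Tbx6, a T-box factor of paraxial mesoderm, gave 23.5, 31.4 and 35.8 in the control and 18.5, 31.7 and 29.9 in the shRNA cells. Replicate 1 was the lowest array of both groups, in the shRNA cells below background, and the other arrays were alike. The log2 fold change was -0.15 (SE 0.27, 95% interval -0.75 to 0.44, adjusted p = 0.778).

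The remaining homeobox genes were dim. Evx1, an even-skipped homologue of the posterior streak, gave 57.5, 5.21 and 17.6 in the control and 14.4, 7.87 and 3.16 in the shRNA cells. Control replicate 1 alone was above background, and without it the groups were close. In the fit over every probe set its log2 change was -0.86 (SE 0.56, adjusted p = 0.472), and without that array it was -0.23 (adjusted p = 0.826). Cdx1, a caudal-type factor that sets posterior Hox expression, gave 15.2, 3.65 and 16.3 in the control and 2.64, 11.1 and 25.5 in the shRNA cells. Only shRNA replicate 3 was above background, and the change was 0.015 (SE 0.47, adjusted p = 0.991), with a sign that differed between settings. Cdx1 was the 1 probe set of the 11 with a higher mean in the shRNA cells.

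Gsc and Lhx1 act in the anterior streak and the organiser. Gsc, which encodes goosecoid, gave 17.3, 2.08 and 17.0 in the control and 1.88, 4.19 and 2.25 in the shRNA cells. All 6 values were below background, so no fold is given, and the change in the fit over every probe set was not called (adjusted p = 0.266). Leaving out control replicate 2, the 1 control array as low as the shRNA arrays, brought it past the threshold in a fit without a signal filter (adjusted p = 0.0188, against 0.0188 to 0.649 over its alternatives). For Lhx1, a LIM-homeodomain gene needed to form the head, both probe sets were dim. The first gave 9.79, 2.08 and 3.71 in the control and 1.39, 2.43 and 1.52 in the shRNA cells, all below background. The second gave 24.8, 4.25 and 2.81 in the control and 0.983, 1.05 and 6.95 in the shRNA cells. Its only value above background was that of control replicate 1, and neither probe set was called (adjusted p = 0.403 and 0.491).

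Cer1 encodes Cerberus, a secreted inhibitor of Nodal, Bmp and Wnt made by anterior endoderm. One probe set gave 16.9, 7.30 and 11.9 in the control and 6.79, 8.82 and 0.994 in the shRNA cells, all below background. The other gave 22.6, 13.5 and 4.42 in the control and 9.06, 4.17 and 6.50 in the shRNA cells, with control replicate 1 alone above background. No fold is given for the first, the second changed by log2 -0.51 (SE 0.35) in the fit over every probe set, and neither was called (adjusted p = 0.333 and 0.508). For the 5 genes under the filter a difference was not detectable at these signals.

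**Figure D2:**
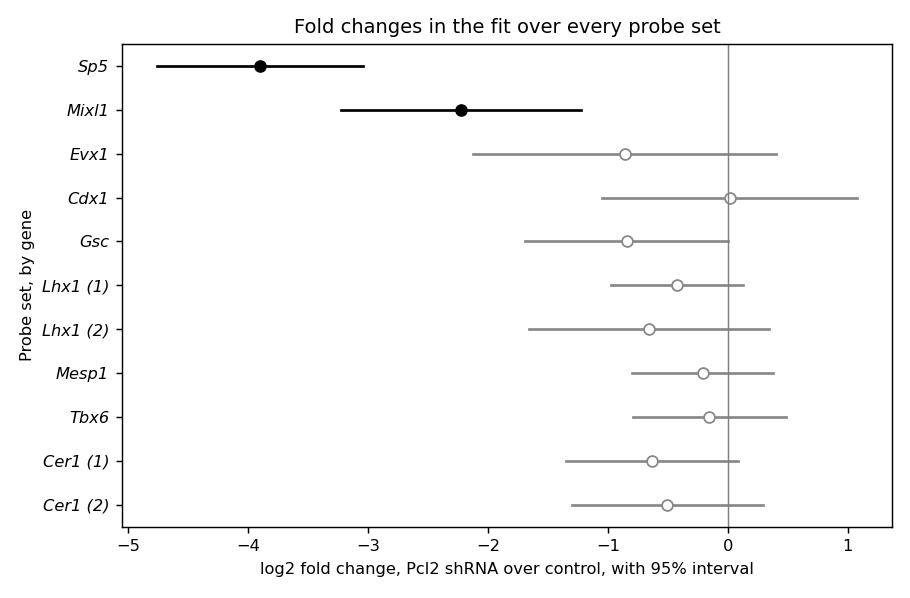
Log2 fold change of Pcl2 shRNA over control for each of the 11 probe sets in the limma fit over every probe set without a signal filter, with 95% intervals; filled black points were called at an adjusted p below 0.05 and open grey points were not. Only the intervals of Sp5 and Mixl1 lie wholly below 0, and the Gsc interval ends at 0.003. For the 3 probe sets below background on all 6 arrays the plotted value is not a measured fold.

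The shRNA mean was below the control mean in 10 of the 11 probe sets, against 44.7% of all probe sets that name 1 gene. Of the 11, 3 lay at or below background on all 6 arrays, where the order of values has no meaning. The groups did not overlap, with the shRNA arrays below, in 2 of the 11, against 11.8% of all probe sets, and in 2 of the 4 tested genes, against 16.7%. In 0 of the 11 did the shRNA arrays all lie above, against 12.4%.

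Control replicate 1 was the highest control array for 9 of the 11 probe sets, against 35.6% of all probe sets that name 1 gene. The exceptions were Cdx1 and Tbx6. The 9 include the 3 probe sets at or below background on all 6 arrays, where the order has no meaning. They also count Lhx1 and Cer1 by 2 probe sets each. Among the 20 tested genes on the list of other streak regulators described next, control replicate 1 was the highest control array for 13. The share over the probe sets of all tested genes was 33.0%. In the other group, shRNA replicate 1 was the highest shRNA array for 4 of the 11 probe sets, against 32.2% of all. Most of the 11 were below background on every shRNA array. It was the highest for 5 of the 20 streak regulators, against 29.5% over the probe sets of all tested genes. Markers of fibroblasts were highest on replicate 1 of both groups. The summed signal of the 7 measured of 8 listed was 928 on control replicate 1 and 366 and 373 on the other controls. On shRNA replicates 1 to 3 it was 566, 249 and 245. Dcn and Lum, of the same list, were at or below background on all 6 arrays, and Col1a2, its brightest gene, gave 168 ± 60.8 and 124 ± 74.9 (adjusted p = 0.438). Without both samples numbered 1 the change of Sp5 was -3.93 (adjusted p = 0.00382) and that of Mixl1 -2.01 (adjusted p = 0.0114). The part of the fibroblast markers in the members' values was not tested.

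**Figure D3:**
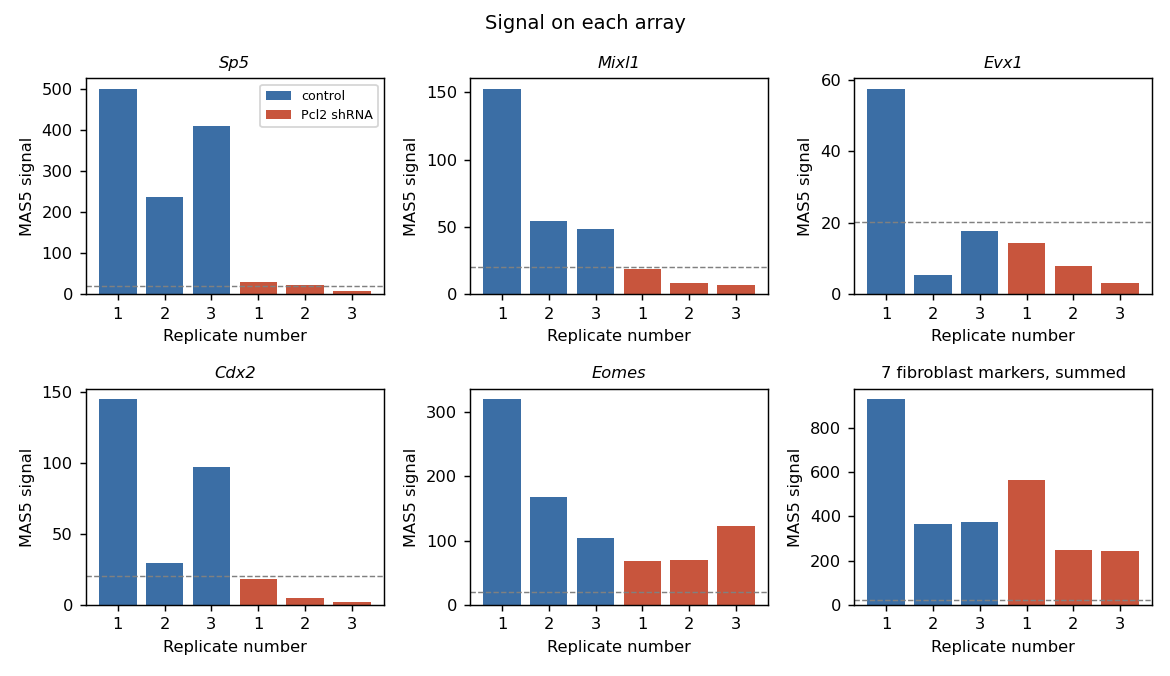
MAS5 signal on each array for Sp5, Mixl1, Evx1, Cdx2 and Eomes, and the summed signal of the 7 measured fibroblast markers; blue bars are control and red bars Pcl2 shRNA replicates 1 to 3, each axis starts at 0 and the dashed line is the background level of 20.3. Control replicate 1 is the tallest bar of all 6 panels, and Sp5 and Mixl1 are low on all 3 shRNA arrays.

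Other regulators of the streak and its derivatives were read from a list of 28 genes, of which 26 were on the array and 20 were tested. Of these 5 fell, 2 rose and 13 did not pass, that is 35.0% called against 12.6% of all genes, with a median log2 change of -0.16 against 0.02 for all genes. Of those that fell, Fgf8, Cdx2 and Foxc1 were below background on every shRNA array and passed the filter only through their control arrays. The share is therefore a description. Without the filter 8 of 26 were called (30.8%, against 7.86% of all genes). Fgf8, a growth factor that cells need to leave the streak, fell from 120, 102 and 172 to 1.68, 1.97 and 3.07, below background on every shRNA array and at least 6.32-fold lower. Cdx2, a paralogue of Cdx1, gave 145, 29.2 and 97.1 in the control and 18.4, 5.07 and 2.13 in the shRNA cells. It was at least 3.67-fold lower (adjusted p = 0.0104), with every shRNA array below background, and a dimmer probe set of it overlapped between groups. Cdx2 passed the filter only through its control arrays: leaving out control replicate 2 gave a bound of 5.85-fold and leaving out control replicate 1 one of 2.63-fold, and in the fits without the latter array it was no longer tested. Amot, which encodes angiomotin, changed by log2 -2.99 (SE 0.26, adjusted p = 9.92e-05) at its brightest probe set, while its others gave -1.40 and 0.08.

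The other genes of this list that fell were Foxc1, a forkhead factor of paraxial mesoderm, at least 2.07-fold lower, and Snai1, which represses E-cadherin as cells leave the epithelium (log2 -0.99, SE 0.24, adjusted p = 0.0205). The Snai1 call was lost in 5 of 20 alternatives, among them those without control replicate 1, without shRNA replicate 1 or 3 and without both samples numbered 1. The genes that rose are also expressed by undifferentiated stem cells: Fgf4, by log2 1.34 (SE 0.20, adjusted p = 0.00180), and Tdgf1, the Nodal co-receptor Cripto, by log2 0.89 (SE 0.19, adjusted p = 0.0132), a call lost without both samples numbered 1. Eomes, a T-box factor upstream of Mesp1, gave 320, 167 and 105 in the control and 68.1, 69.3 and 123 in the shRNA cells and did not pass (log2 -1.03, adjusted p = 0.0992). Without both samples numbered 1, 4 of 19 genes on the list were called (21.1%, against 5.16% of all genes).

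The signals that induce the streak were read from a list of 33 genes for ligands, receptors and transducers, of which 29 were tested. Of these 6 fell, 3 rose and 20 did not pass (31.0% called, against 12.6% of all genes, median log2 change -0.09). With the replicate block 14 were called (48.3%, against 23.8% of all genes), and without both samples numbered 1, 3 of 27 (11.1%, against 5.16%). Among the ligands, Wnt8a gave 48.0, 65.7 and 58.6 in the control and 21.4, 16.2 and 5.74 in the shRNA cells (log2 -1.66, SE 0.32, adjusted p = 0.00733), with no overlap. Its shRNA mean of 14.4 was under the filter signal, so Wnt8a was tested only through its control arrays. Wnt3, the ligand that starts the streak, was under the filter and gave 69.9, 19.6 and 35.4 against 0.640, 6.23 and 3.31, at least 1.80-fold lower (adjusted p = 0.0182 in the fit over every probe set). Its control replicate 2 was itself below background, and the bound leans on control replicate 1, the highest. Inhbb, the beta subunit of activin B, rose by log2 3.41 (SE 0.26, adjusted p = 5.4e-05) by its brightest probe set and by 1.46 by another. Nodal gave 1008 ± 107 and 1153 ± 167 (adjusted p = 0.524). Tdgf1, 1 of the 3 genes of this list that rose, is also counted on the list of streak regulators.

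Among the transducers, Tcf7l1, a Tcf factor that represses Wnt targets in stem cells, changed by log2 -1.25 (SE 0.20, adjusted p = 0.00332). Tcf7l2 changed by log2 -1.15 (SE 0.27, adjusted p = 0.0194), a call lost in 4 of 21 alternatives. Smad3 changed by log2 -0.67 (SE 0.19, adjusted p = 0.0451), a call lost in 11 of 21 alternatives. Foxh1, the Smad partner of Nodal signalling, changed by log2 -1.01 (SE 0.22, adjusted p = 0.0148), a call lost without shRNA replicate 1 (adjusted p = 0.0567) and without both samples numbered 1 (adjusted p = 0.107). Beta-catenin itself, from Ctnnb1, gave 4659 ± 316 and 5256 ± 475 (adjusted p = 0.504). Pcsk6, a convertase that cleaves Nodal precursors, rose by log2 0.89 (SE 0.16, adjusted p = 0.00566; not called without both samples numbered 1), while Furin, another such convertase, changed by log2 -1.22 (SE 0.29, adjusted p = 0.0197) and lost its call in 4 of the 6 fits without 1 array.

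Feedback genes of the same signals, which report pathway activity in many cells, moved both ways: of 20 tested, 5 fell, 2 rose and 13 did not pass (35.0% called, against 12.6% of all genes, median -0.08). In each of the fits without control replicate 1, without shRNA replicate 2 and without both samples numbered 1, 4 of 20 were called (20%), against 9.37%, 7.47% and 5.16% of all genes. Of the Wnt feedback genes, Axin2 gave 308, 223 and 264 in the control and 147, 179 and 155 in the shRNA cells (log2 -0.69, SE 0.18, adjusted p = 0.0345). Its call was lost in 9 of 21 alternatives, among them each fit without 1 array other than that without control replicate 2. Notum, a secreted enzyme that inactivates Wnt ligands, went the other way, from 211, 139 and 98.0 to 359, 594 and 297 (log2 1.44, SE 0.31, adjusted p = 0.0121), and was lost without shRNA replicate 2 (adjusted p = 0.0502). Sp5 and Axin2, both Wnt targets, were thus lower and Notum higher in the same cells.

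The Bmp-induced Id1, Id2 and Id3, which encode inhibitors of basic helix-loop-helix factors, fell, with log2 changes of -1.70, -2.53 and -1.27 (adjusted p = 0.0055, 0.00885 and 0.0186). Id2 gave -0.37 (adjusted p = 0.584) by the probe set that remained when cross-hybridising ones were left out, and Id3 was lost without control replicate 1. Of genes fed by ERK, Spry4 rose by log2 1.55 (SE 0.34), a call lost without shRNA replicate 1 and without both samples numbered 1. Dusp6, a phosphatase that limits ERK, had a log2 change of -0.83 (SE 0.22), a call lost in 7 of 21 alternatives, among them those without control replicate 1, without shRNA replicate 2 or 3 and without both samples numbered 1.

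The families to which the members belong were read from a list of 36 paralogues, of which 15 were tested, 2 were called and 13 did not pass (13.3%, against 12.6% of all genes). Tbx3, a T-box gene of naive stem cells, rose by log2 2.37 (SE 0.18, adjusted p = 5.4e-05), and Cdx2 fell as above. Of the Sp family, Sp1 gave 1027, 1195 and 1481 in the control and 1785, 1571 and 1674 in the shRNA cells (log2 0.45, adjusted p = 0.107), and Sp3, Sp4, Sp6 and Sp7 did not pass. Sp8, the closest paralogue of Sp5 in the streak and tailbud, was under the filter, with overlapping groups.

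**Figure D4:**
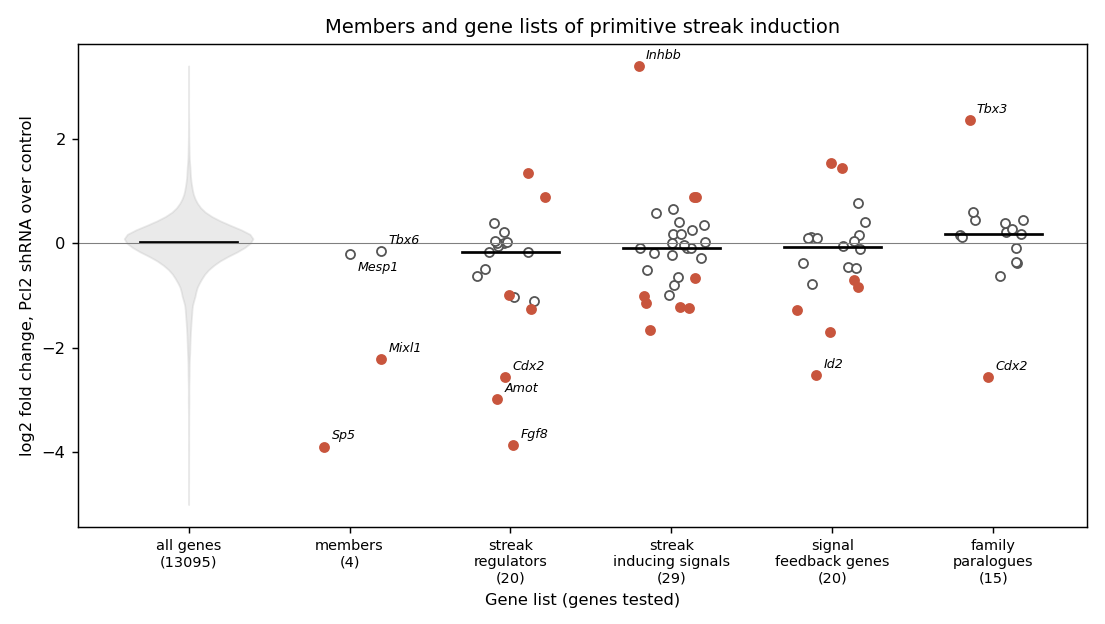
Log2 fold change of Pcl2 shRNA over control for all 13095 genes tested (grey shape), the 4 members tested and the tested genes of 4 lists; red points were called at an adjusted p below 0.05, open points were not, and black lines are medians (none is drawn for the members). Sp5 lies beside Fgf8 at about -3.9, and each list holds genes on both sides of 0.

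Markers of other lineages that cultures of stem cells can hold were as follows. The summed signal of 8 primitive endoderm markers was 325 to 436 in the control and 228 to 273 in the shRNA cells, with Afp at or below background on all 6 arrays. Dab2, its brightest gene, changed by log2 -1.79 (adjusted p = 0.00106) and by -0.90 (adjusted p = 0.0676) at the probe set left without cross-hybridising ones, while Gata4, Gata6 and Foxa2 did not pass. That of 7 trophectoderm markers was 829 to 1344 and 875 to 1252, with Gata3 at or below background on all 6 arrays. The brightest of them, Tfap2c, gave log2 0.51 (adjusted p = 0.108), but 2 of the 5 tested fell: Cdx2 as above and the keratin gene Krt7 by log2 -1.72 (adjusted p = 0.0242), a call lost in 7 of 20 alternatives. The median over the 5 was -1.03. That of 5 of 6 neural markers was 370 to 500 and 342 to 410, with Tubb3 the brightest (adjusted p = 0.867). Of the 4 neural markers tested 1 fell, Nes, which encodes nestin, with log2 -0.84 (adjusted p = 0.0183), a call lost without control replicate 1, and -3.47 at another probe set. Among these 3 lineages the sums separated the groups for primitive endoderm only, and that separation rested on Dab2. Its signal was 212, 169 and 252 in the control and 71.5, 56.2 and 42.4 in the shRNA cells. Gata4, Gata6 and Foxa2 changed by log2 0.003, 0.034 and -0.050. The part of these markers in the members' values was not tested.

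The genes whose log2 values followed those of Sp5 most closely over the 6 arrays were Samd4 (Pearson r = 0.9985), Actn1 (r = 0.9982), Ptpn11 (r = 0.9976) and Cdk14 (r = 0.9974). All 4 fell, with log2 changes of -3.07 for Samd4, -0.78 for Actn1, -0.79 for Ptpn11 and -3.19 for Cdk14. Actn1 and Ptpn11 were not called without both samples numbered 1, and the mean of the Ptpn11 probe sets changed by -0.29. Samd4 was 303, 186 and 315 in the control against 34.9, 28.1 and 15.0 in the shRNA cells. For Mixl1 they were Cela3b (r = 0.9946), Ehd3 (r = 0.9929), Tom1l1 (r = 0.9920) and Actc1 (r = 0.9916). Of these only Actc1 was called (log2 -1.89, adjusted p = 0.00669), and the changes of the other 3 lay between -0.39 and -0.38. Control replicate 1 was the highest array for each of the Mixl1 genes, with 165 against 135 and 133 for Cela3b. These correlations rest on 6 arrays in which the groups differ, and describe only the pattern.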

How the data were processed

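The authors hybridised total RNA to Mouse Genome 430 2.0 arrays and made MAS5 signals with GCOS 1.4, per the submitters' processing notes. What was deposited is a linear intensity for every probe set. Their 2% trimmed mean was 150.001 on each of the 6 arrays, and no further scaling was applied.

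Of 45101 probe sets, 34945 named 1 gene, 932 several and 9160 none, and 64 were controls. Symbols were updated for 34741 through a table of GRCm38.p6. Signals were transformed to log2(signal + 7), 7 being the 20th percentile. Of the 23186 probe sets past the filter, 1 per gene was kept, that of highest mean, giving 13095 genes. Differences were tested, two-sided, with limma 3.58.1 in R 4.3.3 (lmFit, eBayes with trend). Single probe sets were tested by exact permutation over 20 relabellings. The fit was tested on simulated data with known changes. It recovered 26 of 89 changes of log2 1 and 65 of 76 of log2 2, and 4 of the 95 genes called were false. A gene that did not pass is therefore not shown to be unchanged.

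Nothing says that replicate numbers mark a shared culture. Deviations from group means correlated at 0.25 to 0.397 between samples of the same number and at -0.382 to -0.001 between others. Within each group the deviations cancel, so positive same-number values bring negative values between others. That contrast therefore adds no support for pairs. Every same-number correlation was over 0.1. By that criterion alone the numbers were treated as pairs in the fit with the replicate block. The main fit was unpaired. The block changed no call among the 4 members tested.

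The members, lists, promoter motifs and background level were chosen with earlier results of these data known. The genes named were the 9 members, Mtf2, up to 4 called genes per list by smallest p, the brightest marker of each type and, for each called member, the 4 most correlated genes. Foxc1, Snai1, Tdgf1, Eomes, Wnt3, Nodal, Foxh1, Ctnnb1, Furin, Axin2, Id3, Dusp6, the Sp family, Esrrb, Zfp42, Sox2, Krt7, Nes, Gata3, Gata4, Gata6, Foxa2, Dcn, Lum and Afp were added after their values were seen. So were Tcf7l2 and Smad3.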

Additional observations from a re-analysis of the deposited data

How the results depend on the processing

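Alternatives changed 1 choice at a time, except the fit over every probe set, which drops both the filter and the choice of 1 probe set per gene: 19 were planned and 2, a floor at background and leaving out both samples numbered 1, were chosen after seeing the data. Sp5 was called lower in all 21 (log2 -4.32 to -3.29) and Mixl1 in all 20 that tested it (-2.75 to -1.58). With the filter at the 60th percentile only Sp5 was still tested, so 1 member was called. Counts over all genes were 3113 with the replicate block, which pairs the samples by number, 675 without both samples numbered 1, and 979 to 1598 without 1 array. Among the members, signs turned for 3 uncalled genes. Cdx1 gave -0.027 with quantile normalization, -0.045 with median centring, -0.051 with a pseudocount of 1, -0.019 with array weights and -0.42 to 0.46 without 1 array; Tbx6 gave -0.29 to 0.036 without 1 array, 0.036 being without Pcl2 shRNA replicate 1; Lhx1 gave 0.012 without both samples numbered 1. The cause was not tested. Signals near background limit what Evx1, Cdx1, Gsc, Lhx1 and Cer1 can show.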
